A study of Rattus norvegicus with 18 samples.

Results

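From the 22081 genes in the deposited tables, 9 were examined, namely the caveolins Cav1, Cav2 and Cav3, the cavins Cavin1, Cavin2 and Cavin3, and the membrane-bending proteins Ehd2, Pacsin2 and Pacsin3. They were matched by exact symbol, and 9 of 9 were found and had enough counts to be tested. The family was chosen from known caveola genes with the MWCNT-against-control values of these 18 rats already seen, so their differences between treated and control rats are given below as a description, without p-values. Genes of the comparison lists, which were also chosen with results known, are given with FDRs that are not independent evidence. The lungs came from male F344/DuCrlCrlj rats that received MWNT-7, a straight and rigid multiwalled carbon nanotube (MWCNT), or its vehicle alone, saline with Tween 80, by repeated instillation into the trachea from 9 weeks of age. The dose was 0.5 mg/kg body weight at each instillation in MWCNT-treated rats and 0 in control rats. RNA was taken from the accessory lobe of 3 rats per treatment at each of Year 0.5, Year 1 and also Year 2, leaving out tissue with tumor nodules seen at necropsy, and each library is 1 rat. Whole tissue was sequenced, so fewer cells of a type and less RNA per cell cannot be told apart in any value below.

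Caveolae are small flask-shaped pits of the plasma membrane. They form where caveolin proteins insert into the inner leaflet and cavin proteins coat them from the cytoplasm, while EHD2 holds their necks at the cell surface and PACSIN proteins help to bend the membrane. In the lung they are abundant in capillary endothelium and alveolar type 1 epithelium, the thin cells across which gas is exchanged, and they are also frequent in smooth muscle, fibroblasts and adipocytes. CAV1 and CAV2 form mixed oligomers outside muscle, CAV3 takes their place in heart and skeletal muscle, and CAVIN1 is needed for caveolae to form.

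Total counts per library were between 13297643 and 21130757, with 13297643 to 17868851 in control rats and 14661589 to 21130757 in MWCNT-treated rats. No pair of replicates agreed to within sampling noise. Levels are given below as TPM, a share of the library's transcripts that is normalized for gene length. The log2 fold changes come from counts scaled by the trimmed mean of M values (TMM), because TPM in MWCNT-treated rats were lower over all tested genes, with a median log2(TPM + 1) difference of -0.15, -0.21 and -0.20 in time order. A differentially expressed gene (DEG) here had a Benjamini-Hochberg false discovery rate (FDR) below 0.05 in edgeR's quasi-likelihood test and an absolute log2 fold change above 1.

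Cav1 and Cav2 lie side by side on chromosome 4, Cav2 at chr4:44573264-44580638 and Cav1 at chr4:44597123-44630200 in Rnor_6.0, both on the plus strand, with 16484 bases between them. Cavin1 (chr10:88860733-88874528) and Cavin2 (chr9:55243255-55256340) are on the minus strand of other chromosomes. The promoter windows of these 4 genes are shown because they had the largest differences at Year 2 among the 9 members. The windows run from 250 bases before to 50 bases after a transcript start, on the strand of the gene, and come from RefSeq on GRCr8, a later build than that of the deposited tables. Capitals mark every match on either strand to the GC box (spelled GGGCGG), the core promoter element spelled TATAAA, the box spelled CCAAT, the E-box (spelled CANNTG) or the ETS sequence (spelled CCGGAA), and no matches overlapped.
Cav2 (chr4:46582431-46582730): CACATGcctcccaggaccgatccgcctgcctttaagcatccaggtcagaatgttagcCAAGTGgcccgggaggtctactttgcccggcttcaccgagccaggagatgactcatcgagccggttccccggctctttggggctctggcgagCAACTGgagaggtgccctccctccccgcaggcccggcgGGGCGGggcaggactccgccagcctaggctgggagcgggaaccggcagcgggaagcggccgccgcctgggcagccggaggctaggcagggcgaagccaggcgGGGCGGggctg
Cav1, upstream start (chr4:46606288-46606587): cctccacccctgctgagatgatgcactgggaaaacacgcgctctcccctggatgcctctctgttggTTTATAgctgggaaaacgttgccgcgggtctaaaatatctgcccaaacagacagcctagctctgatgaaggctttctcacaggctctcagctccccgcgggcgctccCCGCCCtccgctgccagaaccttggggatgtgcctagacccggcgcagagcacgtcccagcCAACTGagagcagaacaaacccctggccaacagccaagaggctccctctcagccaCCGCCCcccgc
Cav1, downstream start (chr4:46607722-46608021): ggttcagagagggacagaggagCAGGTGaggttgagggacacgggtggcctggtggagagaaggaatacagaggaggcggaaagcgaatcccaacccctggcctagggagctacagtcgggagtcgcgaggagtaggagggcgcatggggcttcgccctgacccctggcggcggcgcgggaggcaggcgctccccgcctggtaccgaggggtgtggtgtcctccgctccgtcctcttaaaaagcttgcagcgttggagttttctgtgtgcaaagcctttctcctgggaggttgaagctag
Cavin1 (chr10:86396334-86396633): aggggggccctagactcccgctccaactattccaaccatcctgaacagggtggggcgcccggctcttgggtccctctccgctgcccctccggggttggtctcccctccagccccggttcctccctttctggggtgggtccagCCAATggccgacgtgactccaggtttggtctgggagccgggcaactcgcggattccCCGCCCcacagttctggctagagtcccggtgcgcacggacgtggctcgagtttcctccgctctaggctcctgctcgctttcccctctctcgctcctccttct
Cavin2 (chr9:57805975-57806274): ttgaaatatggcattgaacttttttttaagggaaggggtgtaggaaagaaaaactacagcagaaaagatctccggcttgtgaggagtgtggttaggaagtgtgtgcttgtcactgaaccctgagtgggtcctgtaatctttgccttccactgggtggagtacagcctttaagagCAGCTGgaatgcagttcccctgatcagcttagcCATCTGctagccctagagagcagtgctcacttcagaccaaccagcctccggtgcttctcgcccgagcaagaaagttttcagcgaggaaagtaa
A GC box was present in the Cav2, upstream Cav1 and Cavin1 windows, and in 33.1% of all 33469 rat promoter windows of the same length. The upstream Cav1 window alone among these 5 held the sequence TATAAA, on the reverse strand and far upstream of the start. TATAAA was found in 14.2% of all windows. The Cavin1 window alone held CCAAT, found in 37.5%. E-boxes were in 4 of the 5 windows and in 72.1% of all windows, whereas none of the 8 member windows held the ETS sequence, which is in 5004 of the 33469 windows. The Cav2 window was 70.3% G or C and the Cavin2 window 48.7%, against a median of 51.7% over all windows. Windows were matched for 7 of the 9 members, all but Cavin3 and Pacsin3. These matches are a description of the printed letters.

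In control lungs the family spanned a wide range of levels. Cav1, the main caveolin outside muscle, was the highest at 1091 ± 108 TPM (SD, n = 9) and ranked at position 94 among all genes. Cavin1 followed at 854 ± 59.9 TPM, and the ranges of the 9 control rats overlapped between these genes (892 to 1194 against 768 to 934). Cavin2, which binds phosphatidylserine and lengthens caveolar membranes, was at 493 ± 43.2 TPM, Ehd2 at 440.0 ± 44.7 TPM and Cav2 at 386 ± 54.7 TPM, and each of these neighbours overlapped with the next. Cavin3 was lower at 119 ± 12.9 TPM, above Pacsin2 at 95.2 ± 5.33 TPM with overlapping ranges. Pacsin3, the PACSIN best known from muscle, was at 29.2 ± 3.59 TPM. Cav3 was the lowest at 6.52 ± 1.53 TPM, its library counts in all 18 rats lying between 26 and 97, and it did not overlap with Pacsin3.

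**Figure D1:**
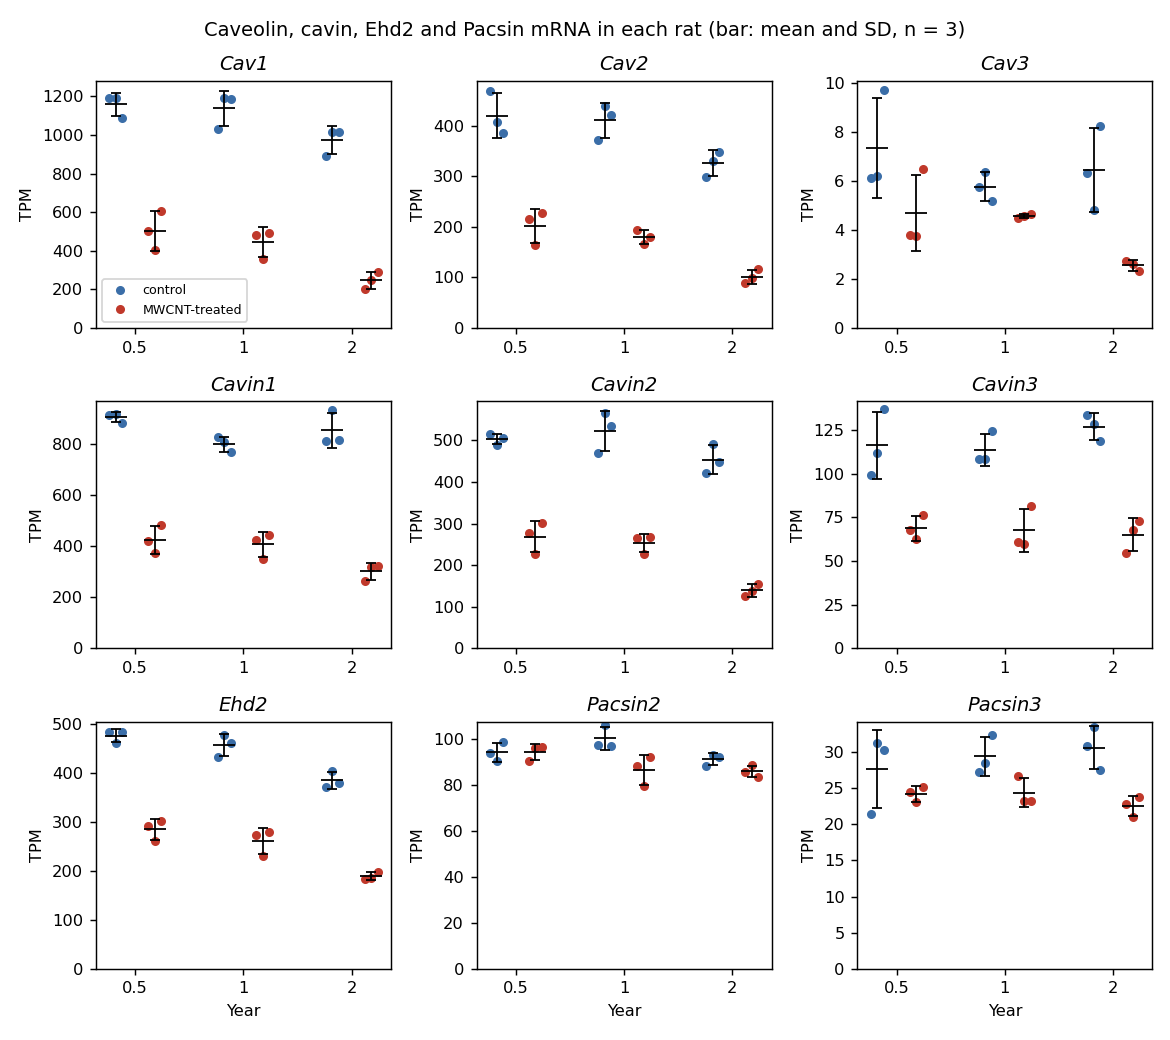
TPM of each of the 9 genes (vertical axes, from 0) against Year (horizontal axes) in control (blue) and MWCNT-treated (red) rats. Each point is 1 rat and the black bar gives the mean and SD of 3 rats. Cav1, Cav2, Cavin1, Cavin2, Cavin3 and Ehd2 of all MWCNT-treated rats sit below all control rats of the same year, a separation in TPM that 40.7%, 46.8% and 45.7% of all tested genes shared in time order.

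Cav1 was lower in MWCNT-treated lungs at each time point. At Year 0.5 the control rats had 1194, 1192 and 1090.1 TPM and the MWCNT-treated rats 502, 402 and 606 TPM. At Year 1 they had 1033, 1193 and 1187 TPM against 482, 357 and 495 TPM. At Year 2 the values were 892, 1016 and 1018 TPM against 201, 250.4 and 288 TPM. The groups did not overlap at any time point, and the highest of the 9 MWCNT-treated rats was below the lowest of the 9 control rats. The log2 fold change was -1.06 ± 0.13 (SE, n = 3 against 3) at Year 0.5, -1.13 ± 0.11 at Year 1 and -1.77 ± 0.12 at Year 2, or 2.09-fold, 2.18-fold and 3.41-fold lower. Cav1 met the DEG criterion at each time point. Without the second MWCNT-treated rat of Year 0.5, which had the lowest Cav1 of its group, the Year 0.5 value was -0.92 and fell outside the criterion.

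Cav2, the partner that depends on CAV1 to leave the Golgi, gave 469.9, 407 and 385 TPM in control rats and 216, 164 and 227 TPM in MWCNT-treated rats at Year 0.5. The Year 1 values were 372, 439.8 and 421 TPM against 193, 167 and 180.4 TPM. By Year 2 they were 298, 330.2 and 349 TPM against 88.5, 99.1 and 116 TPM. No MWCNT-treated rat reached any control rat. The log2 fold change was -0.91 ± 0.12 at Year 0.5, -0.95 ± 0.08 at Year 1 and -1.47 ± 0.10 at Year 2, and Cav2 met the DEG criterion at Year 2.

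The muscle caveolin Cav3 differed from this pattern. Control rats had 6.13, 6.18 and 9.69 TPM at Year 0.5 and MWCNT-treated rats 3.79, 3.77 and 6.46 TPM, and 1 treated rat lay inside the control range. At Year 1 the values were 5.76, 6.35 and 5.17 TPM against 4.48, 4.56 and 4.64 TPM. At Year 2 they were 6.32, 4.81 and 8.22 TPM against 2.71, 2.62 and 2.30 TPM, with no overlap. The log2 fold change was -0.51 ± 0.29 at Year 0.5, -0.10 ± 0.19 at Year 1 and -1.12 ± 0.27 at Year 2, and Cav3 met the DEG criterion at Year 2. Without the third control rat of Year 2 that difference was -0.93, outside the criterion.

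Among the cavins, Cavin1 gave 914, 919 and 883 TPM in control rats and 419, 374 and 482 TPM in MWCNT-treated rats at Year 0.5. At Year 1 it gave 827, 807 and 768 TPM against 427, 350.4 and 445 TPM, and at Year 2 812, 934 and 817 TPM against 264, 321 and 323 TPM. All treated rats were below all control rats. The log2 fold change was -0.95 ± 0.09, -0.74 ± 0.09 and -1.28 ± 0.09 in time order, meeting the DEG criterion at Year 2.

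Cavin2 gave 515, 489.9 and 505 TPM in control rats against 278, 227 and 301 TPM in MWCNT-treated rats at Year 0.5. The values were 469, 565 and 534 TPM against 264, 228 and 269 TPM at Year 1. They were 423, 491 and 449 TPM against 125, 138 and 155 TPM at Year 2. The groups were again apart at every time point. Its log2 fold change was -0.76 ± 0.09 at Year 0.5, -0.81 ± 0.08 at Year 1 and -1.49 ± 0.09 at Year 2, the largest of the cavins, and Cavin2 was a DEG at Year 2.

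Cavin3, which binds protein kinase C delta, was between 99.3 and 137 TPM in control rats and between 54.5 and 81.8 TPM in MWCNT-treated rats. Its log2 fold change was -0.61 ± 0.12 at Year 0.5, -0.52 ± 0.12 at Year 1 and -0.76 ± 0.11 at Year 2. The 9 treated rats all lay below the 9 control rats, but the fold limit of the DEG criterion was not reached. Ehd2, an ATPase of the caveolar neck, ranged from 372 to 484 TPM in control rats and from 184 to 303 TPM in MWCNT-treated rats. Its log2 fold change was -0.60 ± 0.07, -0.58 ± 0.08 and -0.81 ± 0.07 in time order, also below the fold limit.

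The PACSINs differed from the rest of the family. Pacsin2, expressed in most tissues, had means of 94.2 ± 4.19 TPM in control and 94.3 ± 3.32 TPM in MWCNT-treated rats at Year 0.5 (SD, n = 3). At Year 2 the means were 91.2 ± 2.73 and 85.9 ± 2.50 TPM. Its log2 fold changes were 0.15 ± 0.06, 0.02 ± 0.07 and 0.13 ± 0.06 in time order. No direction is given for Pacsin2, because with library size scaling alone the Year 1 and Year 2 values became -0.11 and -0.04. Pacsin3 had log2 fold changes of -0.05 ± 0.14, -0.04 ± 0.10 and -0.23 ± 0.11, and its Year 2 means were 30.6 ± 2.97 TPM in control and 22.5 ± 1.37 TPM in MWCNT-treated rats. In TPM, which was lower over all genes, the treated rats lay below all control rats for Pacsin3 at Year 1 and Year 2 and for Pacsin2 at Year 1.

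**Figure D2:**
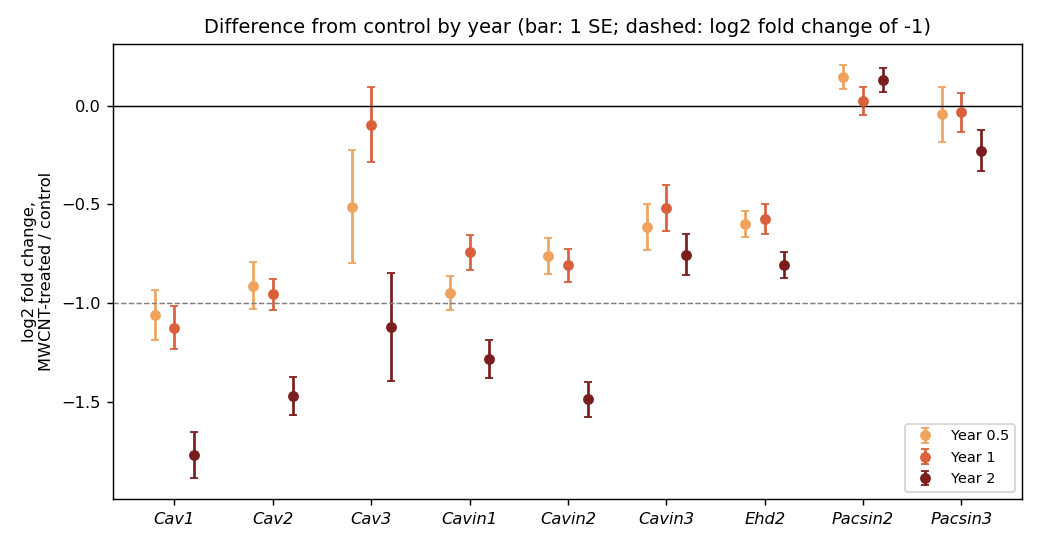
Log2 fold change of MWCNT-treated over control rats (vertical axis) for each gene (horizontal axis) by year (light to dark for the years 0.5, 1 and 2), with bars of 1 SE from the count model of 3 against 3 rats. Cav1 is the lowest of the 9 genes at each year, at -1.77 at Year 2, and Pacsin2 and Pacsin3 lie near 0.

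By the DEG criterion, 1 of the 9 members was lower at Year 0.5 (Cav1), 1 at Year 1 (Cav1) and 5 at Year 2 (Cav1, Cav2, Cav3, Cavin1 and Cavin2). Among all tested genes the same criterion marked 3.03% as lower at Year 0.5, 4.09% at Year 1 and 8.22% at Year 2. With the FDR limit and no fold limit, 6, 6 and 7 members were lower, against 18.6%, 19.6% and 24% of all tested genes. TMM-adjusted CPM, counts scaled to library size, of all treated rats were below those of all control rats for 6, 6 and 7 members, against 24.5%, 26.3% and 29.8% of all tested genes. In TPM without TMM the same separation held for 6, 9 and 8 members and for 40.7%, 46.8% and 45.7% of all tested genes. No member was higher by the DEG criterion at any time point. The median log2 fold change of the members was -0.61, -0.58 and -1.12 in time order, and that of all tested genes -0.02, 0.00 and -0.01. As the family was chosen with these contrasts known, these counts describe it and support nothing further.

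The time course asked whether the family changed with age or with the length of treatment within each arm, in a model of all 18 rats. Both contrasts of an arm share its Year 0.5 rats, and those of the treated arm use rats whose values were known when the family was chosen. Between Year 0.5 and Year 1 no member met the DEG criterion in control rats, where 0% of all 14843 tested genes did, or in MWCNT-treated rats, where 0.0472% did. At an unadjusted p below 0.05, edgeR marked 1 member in control rats (Cavin1) and 0 in MWCNT-treated rats, DESeq2 marked 1 and 0, and limma marked 0 and 0. Over all genes edgeR marked 7.01% and 9.24% at this limit, so these counts are near the background.

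From Year 0.5 to Year 2 no member met the DEG criterion with its fold limit in either arm, against 0.633% of all tested genes in control rats and 2.34% in MWCNT-treated rats. At an unadjusted p below 0.05, edgeR marked 2 members in control rats (Cav2 and Ehd2), and DESeq2 and limma also marked 2, near the background of 24%, 23.4% and 23.2% of all genes. In MWCNT-treated rats edgeR and DESeq2 each marked 6 and limma on log2(TPM + 1) 7, against 27.7%, 26.9% and 28.7% of all genes, and limma placed Cav1 past the fold limit. By the FDR limit alone, 1 member fell in control rats and 5 fell in MWCNT-treated rats, against 4% and 6.87% of all tested genes.

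Ehd2 was the member that fell in control rats, by 0.30 ± 0.06 on the log2 scale (edgeR, FDR = 0.01003, n = 3 against 3). In MWCNT-treated rats Cav1 changed by -0.94 ± 0.13 (FDR = 0.000205) and Cav2 by -0.91 ± 0.11 (FDR = 5.97e-05), both in edgeR's test. Cavin2 changed by -0.86 ± 0.09 (edgeR, FDR = 2.23e-05). Smaller falls were found for Ehd2, at -0.50 ± 0.06 (edgeR, FDR = 7.72e-05), and Cavin1, at -0.41 ± 0.09 (edgeR, FDR = 0.00710). Cav3 gave -0.78 ± 0.26 and missed the limit (edgeR, FDR = 0.0566). In the same contrast Cavin3 gave 0.00 ± 0.13, Pacsin2 -0.05 ± 0.05 and Pacsin3 -0.02 ± 0.12.

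The interaction of treatment with time asks whether the treated-minus-control difference itself moved. It is built from the same treated-against-control values that were known when the family was chosen, so a member's FDR here is not independent evidence. Between Year 0.5 and Year 1 no member passed an FDR below 0.05, as for 0% of all tested genes, and 0 members had an unadjusted p below 0.05 in edgeR or DESeq2 and 1 (Pacsin2) in limma, against 8.49%, 8.01% and 8.52% of all genes. Between Year 0.5 and Year 2, 1 member passed, against 1.31% of all tested genes. Cavin2 had a difference of differences of -0.72 ± 0.13 on the log2 scale (edgeR, FDR = 0.0110). Cav1 at -0.70 ± 0.18 (edgeR, FDR = 0.0713) and Cav2 at -0.55 ± 0.15 (edgeR, FDR = 0.0867) had values of like size with a wider error, and DESeq2 placed all of Cav1, Cav2 and Cavin2 past the limit. Cavin1 gave -0.33 ± 0.13 (edgeR, FDR = 0.254) and Cavin3 -0.13 ± 0.18.

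Ratios within a rat do not depend on the scaling between libraries. The TPM of Cav1 over Cavin1 was 1.28 ± 0.0389 in control and 1.18 ± 0.0938 in MWCNT-treated rats at Year 0.5 (SD, n = 3), and the groups overlapped. At Year 1 the ratio was 1.42 ± 0.155 against 1.09 ± 0.0601, and at Year 2 it was 1.14 ± 0.0886 against 0.812 ± 0.0710, without overlap. At these later time points the transcript of the membrane-inserted caveolin was lower relative to that of the cavin coat in all treated rats. Cav1 over Cav2 was between 2.91 and 3.08 in control and between 2.27 and 2.53 in MWCNT-treated rats at Year 2, while at the earlier time points these ranges overlapped. Cavin1 over Cavin2 changed its order with time. At Year 0.5 it was 1.80 ± 0.0671 in control and 1.58 ± 0.0708 in MWCNT-treated rats, and at Year 2 it was 1.88 ± 0.0537 and 2.17 ± 0.126, without overlap at either time point.

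**Figure D3:**
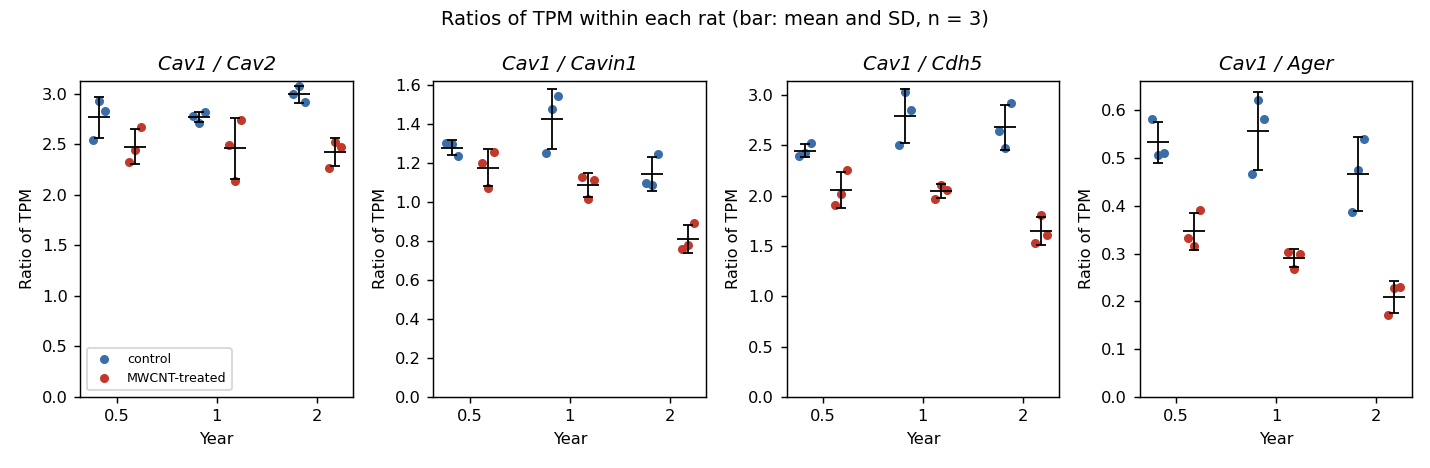
Ratios of TPM within each rat (vertical axes, from 0) against Year (horizontal axes) for Cav1 over Cav2, Cavin1, the endothelial cadherin Cdh5 and the alveolar type 1 receptor Ager, in control (blue) and MWCNT-treated (red) rats, with the mean and SD of 3 rats. At Year 2 all treated rats lie below all control rats in each panel.

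Most marker transcripts of the caveola-rich cell types were lower beside the family. Of the 18 endothelial markers 16 were in the tables (Pecam1 and Car4 were not matched), and the DEG criterion placed 6, 1 and 11 of them lower and 0 higher in time order. By the FDR limit alone, 16, 15 and 15 of these markers were lower and 0 higher, against 18.6%, 19.6% and 24% of all tested genes lower. Their median log2 fold change was -0.84, -0.73 and -1.28. Their summed TPM was between 6007 and 8077 in control rats and between 2835 and 4030.4 at Year 0.5, 2715 and 3690.1 at Year 1 and 1752 and 2557 at Year 2 in MWCNT-treated rats. Plvap, which forms the diaphragm across endothelial caveolae, had the largest change of the list, -2.23 ± 0.21 at Year 2 (edgeR, FDR = 3.67e-05), followed by the angiopoietin receptor Tek at -1.81 ± 0.12 (edgeR, FDR = 4.17e-06). Cldn5, an endothelial tight junction protein, gave -1.41 ± 0.14. Of the 12 alveolar type 1 markers 1, 1 and 4 were lower DEGs and none was a higher DEG. Their sum was 7108 to 8284 TPM in control rats and 3980.4 to 4309 TPM in treated rats at Year 2. By the FDR limit alone, 10, 9 and 10 were lower, against 18.6%, 19.6% and 24% of all tested genes, and 1 was higher at each time point. Cldn18 went the other way in mean TPM, at 984 in treated and 804 in control rats at Year 0.5 and 773 and 717 at Year 2. Ager gave -0.63 ± 0.11 and Hopx -0.89 ± 0.09 at Year 2, and Rtkn2 and Spock2 gave -1.73 ± 0.10 and -1.68 ± 0.17. The part of these cell types in the caveolin and cavin values was not tested.

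Relative to markers of those cells within the same rat, Cav1 was lower for some and not for others. The TPM of Cav1 over that of Cdh5, the cadherin of endothelial junctions, was 2.45 ± 0.0678 in control and 2.06 ± 0.179 in MWCNT-treated rats at Year 0.5, 2.79 ± 0.268 against 2.04 ± 0.0675 at Year 1 and 2.68 ± 0.224 against 1.65 ± 0.141 at Year 2. Cav1 over Ager was 0.533 ± 0.0423 against 0.347 ± 0.0388, 0.557 ± 0.0813 against 0.290 ± 0.0193 and 0.467 ± 0.0775 against 0.210 ± 0.0336 in time order (SD, n = 3). For both ratios all treated rats lay below all control rats at each time point. Over all markers, a comparison added after the values were seen, the ratio of Cav1 to the marker was below control in all treated rats for 7, 10 and 9 of the 16 endothelial markers in time order and for 11, 10 and 10 of the 12 alveolar type 1 markers. The groups overlapped for the rest, and no marker had all treated rats above control. Cav1 over Tek was 3.65 ± 0.0519 in control and 3.75 ± 0.0774 in treated rats at Year 2, and Cav1 over Plvap 0.445 ± 0.120 and 0.596 ± 0.0560, both with overlap. Tek, Plvap, Kdr and Egfl7 were among the endothelial markers that overlapped at each time point.

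**Figure D4:**
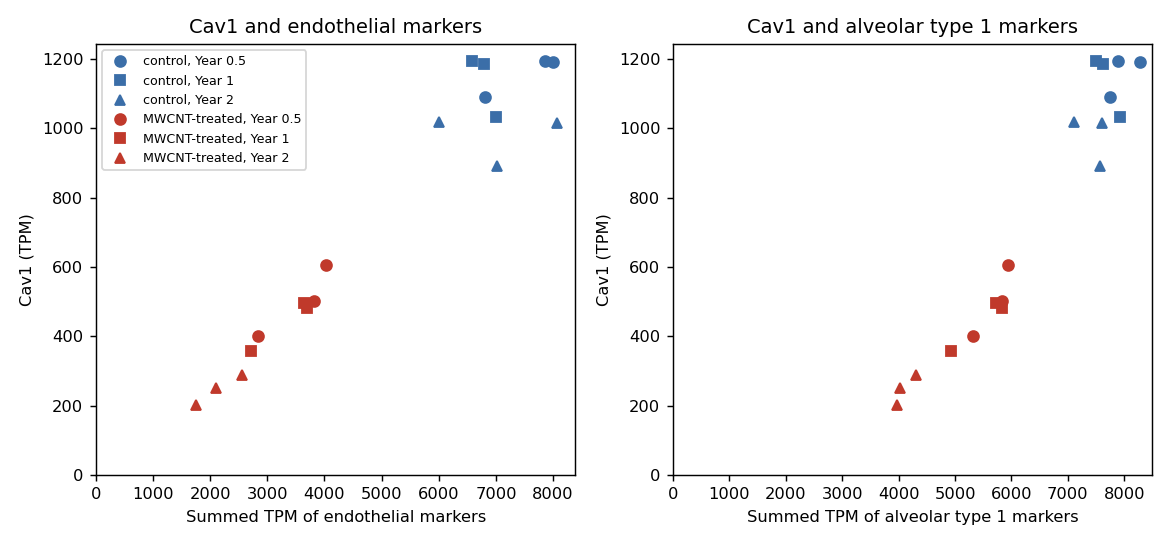
Cav1 (vertical axes, TPM) against the summed TPM of the endothelial (left) and alveolar type 1 (right) markers in each of the 18 rats, control in blue and MWCNT-treated in red, with circles for Year 0.5, squares for Year 1 and triangles for Year 2. The treated rats form a separate cluster at lower values of both, reaching 201 TPM of Cav1 at Year 2.

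Markers of other cell types gave mixed values, and of these types smooth muscle, fibroblasts and adipocytes are the ones named above as carrying caveolae. Of the 8 smooth muscle and pericyte markers 1, 4 and 2 were lower DEGs in time order, and their sum was 1054 to 1662 TPM in control rats and 545 to 840 TPM in treated rats. At Year 2 Cnn1 gave -1.31 ± 0.26, Myh11 -1.07 ± 0.13, Tagln -0.88 ± 0.15 and the smooth muscle actin Acta2 -0.67 ± 0.13. Of the 8 fibroblast markers 0, 0 and 1 were lower DEGs (Dcn, -1.31 ± 0.26) and 1 was higher at Year 2 (Col1a1, 1.22 ± 0.10), while Col3a1 gave 0.86 ± 0.12 and Tcf21 -0.71 ± 0.06. The defining adipocyte genes Adipoq, Plin1 and Lep were near 0, with group means of at most 0.991 TPM, although Fabp4, which macrophages also express, and Cfd were higher at Year 2 by 5.18 ± 0.15 and 1.89 ± 0.17. Alveolar type 2 markers, whose cells hold few caveolae, had 2, 2 and 4 of 8 higher DEGs and none lower, and Sftpc, Sftpa1 and Lamp3 were higher at Year 2 by 1.00 ± 0.10, 1.55 ± 0.10 and 1.33 ± 0.11. Among all tested genes 869 of 14315, 880 of 14345 and 1174 of 14361 were higher DEGs in time order. Of the 9 macrophage and other leukocyte markers 4 were higher DEGs at each time point, and 0, 1 and 1 were lower (Cd163 at Year 1 and Cd3e at Year 2). Their sum was between 610.5 and 766 TPM in control rats and between 2984 and 3397 TPM in treated rats at Year 2. Lgals3 and Cd68 were higher at Year 2 by 3.03 ± 0.11 and 3.03 ± 0.11, Csf1r gave 0.55 ± 0.06, and Marco was at 0.169 TPM on average in control rats and at 0 in some rats. Of the 4 mesothelial markers none was a DEG at any time point, Msln giving 0.71 ± 0.11 and Upk3b -0.95 ± 0.33 at Year 2. The part of these cells in the family's values was not tested.

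Beside Cav3, transcripts of striated muscle were examined. The summed TPM of 10 heart and skeletal muscle markers ran from 74.1 to 746 in control rats and from 20.4 to 227 in MWCNT-treated rats. At Year 2 the sum of the control rats alone ran from 74.1 to 746 TPM. Nppa, a hormone of the atrium, was between 0 and 0.610 TPM in every rat, while Acta1, the actin of skeletal muscle, was higher in treated rats. Of the 9, 9 and 8 markers tested in time order, 7, 1 and 2 were lower by the DEG criterion and 1 was higher (Acta1). The 2 lower at Year 2 were Actc1 and Mb. The cardiac actin Actc1 had a mean of 156 TPM over the control rats and a log2 fold change of -1.62 ± 0.34, -1.27 ± 0.58 and -1.99 ± 0.50 in time order. At Year 2 the cardiac troponin Tnni3 gave -2.03 ± 0.80, myoglobin (Mb) -3.36 ± 1.23 and Acta1 2.54 ± 0.45. Tnni3 missed the limit there (edgeR, FDR = 0.0602). Mb was close to the limit (edgeR, FDR = 0.0475), with a lowest control value of 0 TPM. The Year 1 value of Actc1 did not meet the DEG criterion (edgeR, FDR = 0.108). After subtracting each group's mean over the 18 rats, log2 CPM of Cav3 gave r = 0.37 with log2 of the muscle sum. This value was not particular to striated muscle, as Cav3 gave 0.36 with the smooth muscle and pericyte sum and 0.42 with the adipocyte sum. With the endothelial, alveolar type 1 and leukocyte sums Cav3 gave -0.30, -0.20 and 0.09. The part of muscle tissue in the Cav3 values was not tested.

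Relatives of the family that are not members varied among themselves. Of 12 genes for relatives of EHD2, PACSIN and cavins, dynamins, flotillins and other membrane scaffolds, 0 were lower DEGs at Year 0.5, 1 at Year 1 (Ehd3) and 2 at Year 2 (Ehd1 and Dnm3), and 1 was higher at each time point (Stom). The endocytic ATPases Ehd1 and Ehd4 gave -1.07 ± 0.11 and -0.89 ± 0.10 at Year 2. The flotillins Flot1 and Flot2, which scaffold other membrane domains, gave 0.05 ± 0.09 and 0.13 ± 0.06, and filamin A (Flna), an actin crosslinker that anchors caveolae, 0.34 ± 0.07. Stomatin (Stom), a hairpin-inserted membrane protein like the caveolins, rose by 1.83 ± 0.08 (edgeR, FDR = 5.96e-07). Cavin4, the muscle cavin, was between 0.618 and 1.76 TPM in all rats and differed by -0.46 ± 0.31 at Year 2. The list's median was 0.09 at Year 2, against -1.12 for the members and -0.01 for all tested genes.

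Among 12 proteins known to bind caveolin or to reside in caveolae, 10 were in the tables (Cd36 and Ptgis were not matched). Of these, 2, 1 and 5 were lower DEGs in time order and 1 was higher at each time point. The 5 at Year 2 were Plvap, the VEGF receptor Kdr (-1.58 ± 0.16), the lipid receptor S1pr1 (-1.26 ± 0.09), the adenylyl cyclase Adcy5 (-1.18 ± 0.09) and the BMP receptor Bmpr2 (-1.15 ± 0.12). The water channel Aqp1 gave -0.90 ± 0.09. Endothelial nitric oxide synthase, Nos3, the best known enzyme held by caveolin-1, differed by -0.25 ± 0.10 and did not meet the criterion. The gene that was a higher DEG was Cd44, the hyaluronan receptor, at 1.44 ± 0.10 (edgeR, FDR = 5.74e-06). Insr and Egfr were not DEGs, with Year 2 mean TPM of 13.4 and 5.22 in treated and 10.9 and 4.49 in control rats. By the FDR limit alone, 6, 7 and 6 genes of the list were lower, against 18.6%, 19.6% and 24% of all tested genes. At that limit 2, 1 and 3 were higher, as were 2890, 3095 and 3616 of all tested genes. Kdr and Plvap are also on the endothelial list.

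Rats of the same group that had more of 1 member also tended to have more of others. After subtracting each group's mean from log2 CPM over the 18 rats, Cav1 gave r = 0.88 with Cavin2, 0.81 with Cav2, 0.79 with Cavin1 and 0.75 with Ehd2, and 0.39 with Cavin3. Cav3 gave 0.03 with Cav1, Pacsin2 gave -0.21 and Pacsin3 0.00. With log2 of the endothelial sum, treated likewise, Cav1 gave 0.84, Cavin1 0.90, Cavin2 0.78 and Cav2 0.64. With the alveolar type 1 sum these genes gave 0.72, 0.79, 0.57 and 0.43. Values of Cav1 were -0.76 with the macrophage and other leukocyte sum and -0.52 with the adipocyte sum. They were -0.15 with the smooth muscle and pericyte sum and -0.05 with the muscle sum. In treated rats at Year 2, Fabp4 made up a mean of 678 TPM of an adipocyte sum of 735 to 803. Lgals3 made up a mean of 2249 TPM of a leukocyte sum of 2984 to 3397. In those rats the adipocyte and leukocyte sums thus followed mainly single genes rather than a count of cells. In control rats Fabp4 had a mean of 29.5 TPM and Lgals3 of 319 TPM, in sums of 43.0 to 79.8 and 610.5 to 766. The endothelial sum also held genes of large weight. Plvap and Cldn5 had means of 2207 and 1190 TPM in control rats, in sums of 6007 to 8077. The points share library, depth and composition, and all values are descriptions over 18 rats in 6 groups.

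**Figure D5:**
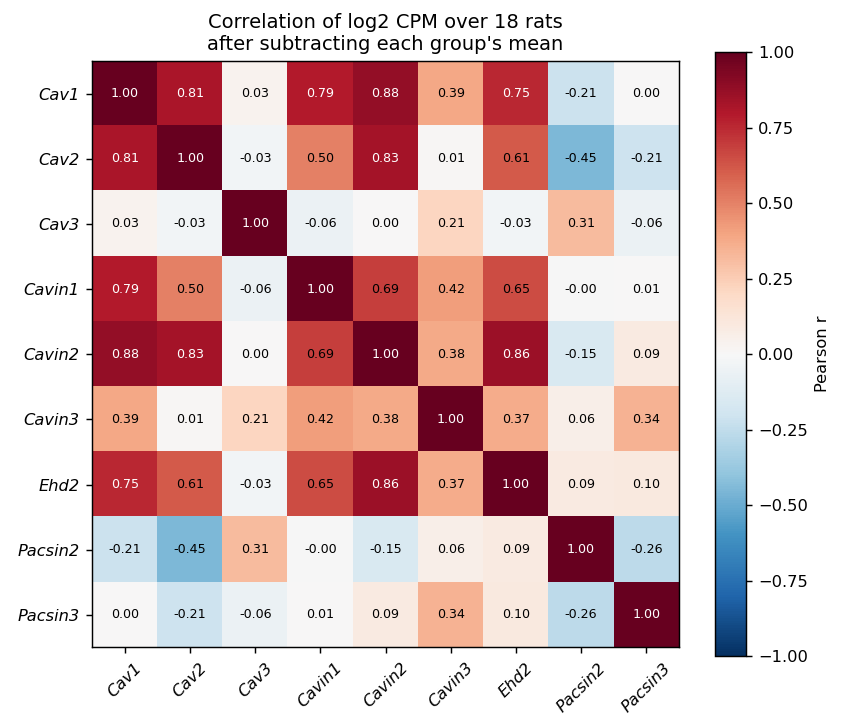
Pearson r between the 9 genes (both axes) over 18 rats after each group's mean was taken from log2 CPM, from -1 (blue) to 1 (red). Cav1, Cav2, Cavin1, Cavin2 and Ehd2 form a block of positive values from 0.50 to 0.88, and Cav3, Pacsin2 and Pacsin3 lie outside it.

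Among 14289 genes with sufficient counts, those most like Cav1 over the 18 rats were Tspan7, Fermt2, Cped1, Tek and Zeb1, with r of 0.99 each, a likeness that includes the difference between treated and control rats. Cavin2 ranked at position 7 and Cav2 at position 10. With group means subtracted the closest were RGD1561648, Fermt2, Tspan7, Ldb2 and Myrip, with r from 0.92 to 0.95. Fermt2, an adaptor of integrins, and the tetraspanin Tspan7 were in both sets. By this second measure Cavin2 ranked at position 22, Cav2 at 92, Cavin1 at 142, Ehd2 at 232 and Cavin3 at 2649, so genes outside the family were closer to Cav1. For Cav3 the closest over the 18 rats were Rbbp9, AABR07027870.1, Ccdc103, Etfbkmt and Pdlim3, with r from 0.86 to 0.88. With group means subtracted they were Mybpc2, Ssmem1, Slc34a3, Coq4 and LOC288978, led by Mybpc2, a myosin-binding protein of fast skeletal muscle, at 0.87, while Cav1 ranked at position 5930.

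The genes around Cav1 and Cav2 did not share their direction. Within 500 kb on either side, chosen after the member values were seen, 5 genes were tested. Met, the hepatocyte growth factor receptor, differed by 0.99 ± 0.09 at Year 0.5, 0.74 ± 0.09 at Year 1 and 1.35 ± 0.12 at Year 2 (edgeR, FDR = 2.74e-05 at Year 2), and Tfec, a transcription factor of macrophages, by 1.45 ± 0.22, 1.12 ± 0.20 and 1.39 ± 0.20. ST7, Capza2 and Tes gave 0.77 ± 0.10, 0.49 ± 0.07 and 0.25 ± 0.07 at Year 2, each with an FDR below 0.05 in edgeR. Cav1 and Cav2 were the only tested genes of this interval with lower values in treated rats at Year 2.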

How the data were processed

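Lung RNA of 18 rats was sequenced, 1 library per rat and 3 rats per treatment and time point. Read counts per gene were deposited by the authors in 3 tables, made with CLC Genomics Workbench on the rat build Rnor_6.0 (rn6), as named in the methods and the submitters' processing notes. TPM values were deposited by the authors beside the counts and were used for levels and ratios. The other 36 per-rat columns (RPKM and CPM) were not used, nor were 18 columns of the authors' own comparisons, which hold fold changes and p-values.

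Counts were tested with edgeR 4.0.16 in R 4.3.3 (TMM factors, filterByExpr set to at least 10 counts in enough rats and 15 in total, quasi-likelihood test, Benjamini-Hochberg adjustment over all genes tested). Each treatment contrast was fitted on its 6 rats. Time contrasts and the treatment by time interaction were fitted in 1 model of 18 rats, the interaction being called at an FDR below 0.05 without a fold limit. DESeq2 1.42.0 and limma 3.58.1 on log2(TPM + 1) and log2(TPM + 0.1) were alternatives, as were other filters, scalings and call limits, a replicate block and leaving out each rat in turn. The scripts were tested on simulated data with known changes. Total counts per library were 13297643 to 21130757 (median 15568291), and for Cav3, with under 100 counts in each library, counting error is a larger share of the value than for the other members. The replicates are separate rats, which the paper describes as a random choice among samples that passed an RNA quality limit. The p-values therefore weigh a difference against the spread between rats of a group.

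The members and gene lists were chosen with earlier results of these data known. From each list the 2 genes with the highest control TPM and the 2 with the largest change at Year 2 were named, with any gene of the caveola relatives, caveolin-binding and muscle lists, and the 5 genes most like Cav1 and Cav3 by Pearson r of log2 CPM (prior count 2) among genes with at least 10 counts in 9 or more rats. Genes near Cav1, genes that make up a count of 5 or fewer and the genes at 0 were named after their values were seen. Promoter windows were taken from RefSeq on GRCr8, while gene positions are those of the deposited tables in Rnor_6.0.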

Additional observations from a re-analysis of the deposited data

Results flagged for a closer look

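Among the members and listed genes, 8 had a treated-minus-control difference that moved between Year 0.5 and Year 2 by the test of the interaction in edgeR's 18-rat model (FDR below 0.05). Cavin2 was the member among them, with a difference of differences of -0.72 ± 0.13 on the log2 scale (SE, FDR = 0.0110). These values were known when the gene was chosen, so the FDR is not independent evidence. Its treated-minus-control log2 difference was -0.76 at Year 0.5 and -1.49 at Year 2. Among relatives of the family the dynamin Dnm1 had 0.63 ± 0.13 (edgeR, FDR = 0.0269) and Stom 0.57 ± 0.10 (edgeR, FDR = 0.0140). Among alveolar type 1 markers Pdpn had -0.48 ± 0.09 (edgeR, FDR = 0.0140), Akap5 -0.88 ± 0.19 (edgeR, FDR = 0.0287) and Emp2 -0.37 ± 0.09 (edgeR, FDR = 0.0497). Fabp4 had 2.11 ± 0.27 (edgeR, FDR = 0.00136) and the macrophage lectin Lgals3 0.83 ± 0.18 (edgeR, FDR = 0.0295). Single rats far from their group were not looked for, since groups of 3 are too small for that test.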

How the results depend on the processing

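Of 1449 member values under alternatives, 1324 kept their direction and side of the threshold, 44 gained a call and 3 lost it. The other 78, none called in either fit, changed sign, with values of at most 0.18 reported and 0.21 under the alternative. The call limits of any fold and of an FDR below 0.01 reused the same fit, so no direction could change under them. A call could only be gained at any fold and only be lost at the stricter FDR. The count of members called lower at Year 0.5, reported as 1, became 3 with library size only, 3 with limma on log2(TPM + 1), 3 with log2(TPM + 0.1) and 6 at any fold. At Year 1 it went from 1 to 2 with library size only, to 3 and 3 with limma and to 6 at any fold. The Year 2 count of 5 stayed within 1.5 times under every alternative run. Between Year 0.5 and Year 2, the count of 0 became 1 at any fold in control rats, and in MWCNT-treated rats 1 and 1 with limma and 5 at any fold. The Year 2 interaction count of 1 became 3 with DESeq2 (Cav1, Cav2 and Cavin2) and 0 at an FDR below 0.01. The cause of these moves was not tested.

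Leaving out each rat in turn gave 0 to 2 members at Year 0.5, 1 to 2 at Year 1 and 4 to 5 at Year 2. The Year 0.5 count was 0 without MWCNT replicate 2 and 2 without MWCNT replicate 3 (Cav1 and Cavin1), and the Year 1 count was 2 without control replicate 1. The Year 2 against Year 0.5 count in MWCNT-treated rats ranged from 0 to 2, the 2 being Cav1 and Cav2 without either MWCNT replicate 2 of Year 0.5 or MWCNT replicate 3 of Year 2. The Year 2 interaction count ranged from 1 to 3, at 3 without MWCNT replicate 2 of Year 0.5 and 2 without MWCNT replicate 3 of Year 2.

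With the replicate number as a block the member counts were 1, 1 and 5 in time order, 0 in each time contrast, and 0 and 1 for the interaction, as without the block. Same-numbered rats did not deviate together (mean r = 0.01 over 9 pairs, from -0.17 to 0.13, against -0.01 over 18 pairs of other numbers), so the numbers do not pair the rats.

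Over all genes, the Year 2 interaction gave 194 calls with edgeR and 476 with DESeq2. The Year 2 against Year 0.5 contrast gave 94 in control and 348 in MWCNT-treated rats with edgeR against 44 and 200 with limma on log2(TPM + 1), and 61 and 204 when 10 counts or more were required in all rats. The scaling moved the split of treatment calls. At Year 0.5, 869 genes were higher and 434 lower with TMM against 760 and 643 with library size only, at Year 1 880 and 587 against 739 and 895, and at Year 2 1174 and 1181 against 948 and 1583. Cav3 had 26 to 97 counts per library and, in the treatment contrasts, the largest standard errors of the members.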
